A study of Saccharomyces cerevisiae with 6 samples.

Results

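The stable unannotated transcripts (SUTs) of budding yeast, Saccharomyces cerevisiae, were examined in growing and in quiescent cells. SUTs were the rows of the deposited RNA-seq table named SUT followed by a number, and there were 847 of them among 9891 rows. The table held 3 libraries of exponentially growing (log) cells, taken at an optical density (OD600) of 0.8 to 1.0. Another 3 were of quiescent cells, collected on day 7 of stationary phase and purified over successive Percoll density gradients. All 6 came from strain YCH406 grown at 30 C in rich medium (YPD) with adenine and ampicillin. In both groups this MATa strain carries RPB3-9Myc, which tags a subunit of RNA polymerase II, and lacks both chromosomal pairs of H2A and H2B genes, HTA1-HTB1 and HTA2-HTB2. It takes these histones from a plasmid with HTA1-HTB1 and a second one with a Flag-tagged HTA1 and HTB1, and has mutant his3, leu2, ura3 and trp1 genes. It is 1 laboratory strain, so the values describe that background. The labels call the replicates biological. The series asked how the transcriptome differs between the states, beside maps of RNA polymerase II and histone H3 methylation.

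SUTs were defined in strand-specific maps of yeast transcription as RNA that is seen in wild-type cells but matches no known gene. RNA polymerase II makes them, often from the open chromatin that also serves the promoter of a neighbouring gene, and many run antisense to a gene. Cryptic unstable transcripts (CUTs), which resemble them, are removed in the nucleus by the Nrd1 termination complex and the exosome and become visible when the exosome subunit Rrp6 is lost. SUTs largely escape that route, reach the cytoplasm and are degraded there by decapping, by the 5′ exonuclease Xrn1 and in part by nonsense-mediated decay.

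The table gave each SUT a name and a length and no position. The median length was 744 bases (range 32 to 4912), against 376 bases for the 925 CUTs and 1205 bases for the 6007 protein-coding rows. Lengths were whole multiples of 8 bases in 814 SUTs (96.1%) and in 12.1% of protein-coding rows. The RefSeq annotation of build R64, the build in the submitters' processing notes, names 9 SUTs. For 8 of them the annotated span was 1 base longer than the length in the table, and these could be placed. The first 120 bases of 4 of them are shown because these 4 are described with their values further on: SUT053 and SUT468 overlap on opposite strands, SUT418 had the largest difference between the states among the placed SUTs, and SUT125 was the next. They are RefSeq R64 sequence in the sense of the transcript, with capitals at the letters GTAG, GTAA and TCTT, none of which occur in the stretch of SUT418. GTAG and GTAA are the DNA form of motifs bound by Nrd1, and TCTT of one bound by its partner Nab3.
SUT418: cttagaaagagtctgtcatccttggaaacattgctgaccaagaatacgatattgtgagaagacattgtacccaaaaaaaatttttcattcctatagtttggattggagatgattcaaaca
SUT125: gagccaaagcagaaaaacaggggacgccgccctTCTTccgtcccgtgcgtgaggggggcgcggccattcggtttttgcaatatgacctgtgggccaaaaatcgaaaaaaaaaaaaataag
SUT053: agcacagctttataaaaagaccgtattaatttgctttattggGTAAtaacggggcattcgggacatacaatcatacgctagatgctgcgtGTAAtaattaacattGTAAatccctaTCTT
SUT468: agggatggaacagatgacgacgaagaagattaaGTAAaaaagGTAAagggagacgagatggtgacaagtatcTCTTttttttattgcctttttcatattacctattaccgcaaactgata

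The motifs were sought on the transcript strand. In the first 120 bases, 0 of the 8 placed SUTs held GTAG, 3 held GTAA and 5 held TCTT. Of all 120-base windows on both strands of the nuclear genome, 26.8% held GTAG, 40.1% held GTAA and 56.0% held TCTT. Over its full 833 bases SUT418 held GTAG 5 times, GTAA 6 times and TCTT 6 times. These counts describe the letters in these windows only.

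Total counts were 8894585 to 14213993 per library. All 5 marker genes of quiescence on the list used here (HSP12, HSP26, SPG1, SPG4 and SIP18) were higher in quiescent libraries and all 5 growth markers (RPL3, RPS3, ENO2, RNR1 and CLB2) were lower. Rows of the ribosomal DNA unit took 4.68% to 38.5% of the counts, and their share varied within both groups. HTA2 and HTB2, labelled as deleted, had 11.1 and 7.02 normalized CPM (read counts on a common library size) in log cells, and their near-identical copies HTA1 and HTB1 may share reads with them. Whether reads were counted by strand is not given in the sources used here. In 11 pairs of annotated rows of which one lies inside the other on the opposite strand, and where the outer row's read density predicted at least 100 reads on the inner one, the inner density was below the outer in 9 and under 0.1 of it in 3. A lower inner density can also come from uneven coverage along a row. In the rest, YHR053C inside RUF5-1 and YHR055C inside RUF5-2, the inner rows held 56138 and 56630 reads and the outer rows 415 and 435. The outer row spans the inner one, so in these pairs reads were not counted on both rows. Nor were they dropped as overlapping, since the inner rows kept theirs. Whether the strand or another rule placed these reads was not tested, nor whether the same holds for other rows. For the SUTs without a position, overlap with a gene is unknown, and their counts are uncertain to that extent.

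SUTs took a larger part of the sequenced RNA in quiescent cells. Log replicates 1 to 3 had 0.326%, 0.388% and 0.303% of their reads on SUTs, and quiescent replicates 1 to 3 had 1.00%, 0.731% and 0.857%. The groups did not overlap, and the means were 0.339% ± 0.0440 and 0.863% ± 0.135 (SD, n = 3 each, exact two-sided permutation p = 0.1, the smallest that 3 against 3 libraries allow). In reads, that was 40401 to 43139 per log library and 89071 to 104972 per quiescent library. In these bulk samples, fewer cells of a kind and less RNA per cell cannot be told apart. All values are relative to the rest of the library, since the added spike-in RNA was not used here. The deposited table held 0 rows named as ERCC spike-in RNA.

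The gain was larger against mRNA. For each 100 reads on protein-coding rows there were 0.452, 0.589 and 0.474 SUT reads in the log libraries and 2.42, 2.30 and 3.05 in the quiescent libraries. Every quiescent library was above every log library, and the ratio of the means was 5.13 (exact permutation p = 0.1). Protein-coding rows fell from 67.4% ± 4.20 to 33.8% ± 6.88 of all reads at the same time (SD, n = 3 each, exact permutation p = 0.1), so the numerator and the denominator both moved. In TPM, whose total includes the ribosomal DNA, tRNA and snoRNA rows, the level of the typical SUT changed less. On normalized counts, described further on, the median log2 fold change of the tested SUTs was 1.19. The median SUT stood at 0.956, 1.27 and 0.958 TPM (transcript abundance, reads per base of length as a share of the library) in log cells and at 1.10, 1.05 and 0.778 TPM in quiescent cells, and these groups overlapped (exact permutation p = 0.6). The median nuclear protein-coding gene stood at 6.69 to 7.06 TPM in log cells and 2.40 to 4.12 TPM in quiescent cells. The median SUT was thus at 0.153 ± 0.0244 of the median gene in log libraries and at 0.300 ± 0.0287 in quiescent ones (SD, n = 3 each, exact permutation p = 0.1).

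SUTs also gained against CUTs. There were 0.541, 0.505 and 0.528 SUT reads per CUT read in the log libraries and 1.18, 0.763 and 1.54 in the quiescent libraries, without overlap (ratio of the means 2.22, exact permutation p = 0.1). The log values lay close together and the quiescent values spread widely, with quiescent replicate 2 lowest. Without the 10 SUTs and 10 CUTs of highest mean TPM the ratio rose from 1.52 ± 0.253 to 2.39 ± 0.0868 (SD, n = 3 each), a ratio of the means of 1.57. The CUTs themselves held 0.649% ± 0.106 of the reads in log cells and 0.787% ± 0.208 in quiescent cells, and these groups overlapped (exact permutation p = 0.4).

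**Figure D1:**
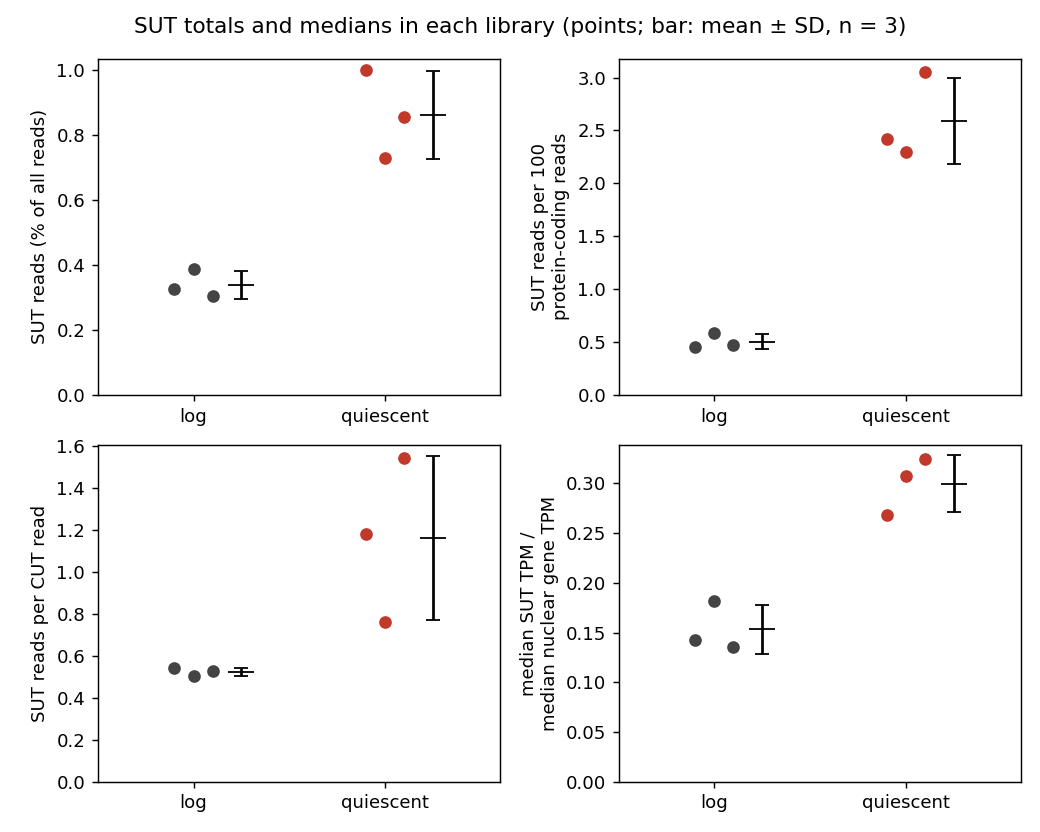
SUT values in each of the 6 libraries: share of all reads (%), SUT reads per 100 protein-coding reads, SUT reads per CUT read, and median SUT TPM over median nuclear gene TPM. Points are libraries and bars are the mean ± SD of 3. In all 4 panels the quiescent libraries lie above the log libraries, most clearly against protein-coding reads (2.30 to 3.05 against 0.452 to 0.589).

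Every SUT had at least 1 read in some library, and 802 of the 847 had a read in all 6. After each library was thinned to 8894585 reads, the number of SUTs with at least 10 reads was 582, 622 and 502 in the log libraries and 698, 643 and 636 in the quiescent libraries. These groups did not overlap (exact permutation p = 0.1). Without thinning the numbers were 632 to 660 and 694 to 710. The ratio of the thinned means was 1.16, against 2.31 for the summed reads. At a minimum of 5 reads the thinned numbers were 720, 744 and 676 in log libraries and 763, 743 and 748 in quiescent ones, and these groups overlapped (exact permutation p = 0.2).

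Each SUT was then tested between the states with the edgeR quasi-likelihood test, fitted on all rows with a mean of at least 1 TPM over the 6 libraries. Of the 847 SUTs, 501 passed that filter and 346 did not. The filter uses the mean of both groups, so a SUT could pass through its higher group alone. Between the states 67.9% of all tested rows passed, 32.8% upward and 35.2% downward. Of the 501 SUTs, 252 rose (50.3%) and 35 fell (6.99%) in quiescent cells at an adjusted p under 0.05 (Benjamini-Hochberg over all 7305 tested rows), and 214 did not pass. The normalized CPM of the groups did not overlap in 308 SUTs (61.5%), against 72.2% of all tested rows. Log2 fold changes, quiescent over log, had a median of 1.19 in the SUTs (quartiles 0.12 and 1.99), -0.02 over all tested rows, 0.43 in the 314 tested CUTs and -0.21 in the 5608 tested protein-coding genes. Of the SUTs, 48 rose and 6 fell by a log2 fold change of at least 3, beside 6.93% of all tested rows that rose and 7.8% that fell as far. With no filter on low values, all 847 SUTs entered the fit, and 315 rose and 55 fell, against 25.9% of all rows that rose and 29.9% that fell there. The median log2 fold change of the SUTs was then 0.82, against -0.27 for protein-coding genes and 0.25 for CUTs.

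How far risers outnumbered fallers depended on the scale. SUTs that rose made up 87.8% of the SUT calls on TMM-scaled counts and 53.8% on log2(TPM + 1) with limma, where 120 rose and 103 fell. On that scale 14.5% of all tested rows rose and 53.9% fell (14.2% and 53.3% with a pseudocount of 0.1, 14.4% and 53.7% with 5), and the median of all tested rows lay at -0.79. The median SUT lay at 0.093, against -0.98 for protein-coding genes and -0.31 for CUTs. The median SUT thus lay above the median gene by 1.40 on TMM-scaled counts and by 1.08 on log2(TPM + 1), 1.35 with a pseudocount of 0.1 and 0.58 with 5. No SUT was called in opposite directions by these fits. Of the 252 that rose, 9 lay below 0 on the TPM scale, and of the 35 that fell, 0 lay above it.

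**Figure D2:**
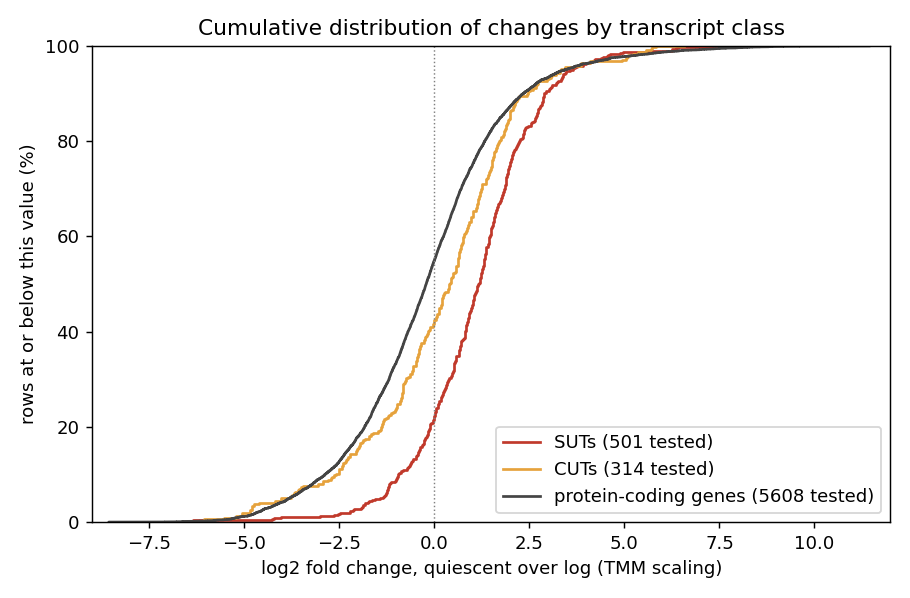
Cumulative share (%) of tested rows at or below each log2 fold change, quiescent over log on TMM-scaled counts, for 501 SUTs, 314 CUTs and 5608 protein-coding genes. The SUT curve lies to the right of the others over most of the range, with medians of 1.19, 0.43 and -0.21, and the curves come together at the highest changes.

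Most SUTs were scarce and a few carried much of the signal. In log cells 16 SUTs reached a mean of 10 TPM and in quiescent cells 28 did, but only 6 of these were the same. A mean of at least 1 TPM was reached by 457 SUTs in log cells, by 437 in quiescent cells and by 296 in both. The 10 highest SUTs of each library held 20.4% to 27.6% of SUT reads in log cells and 32.9% to 49.3% in quiescent cells, without overlap (exact permutation p = 0.1). On log2(TPM + 1), the correlation of the 847 SUTs (Pearson's r) was 0.818 to 0.862 between log libraries, 0.847 to 0.897 between quiescent libraries and 0.353 to 0.465 between the states. These are correlations across SUTs, which are not replicates, and each pair of libraries shares the same row lengths.

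**Figure D3:**
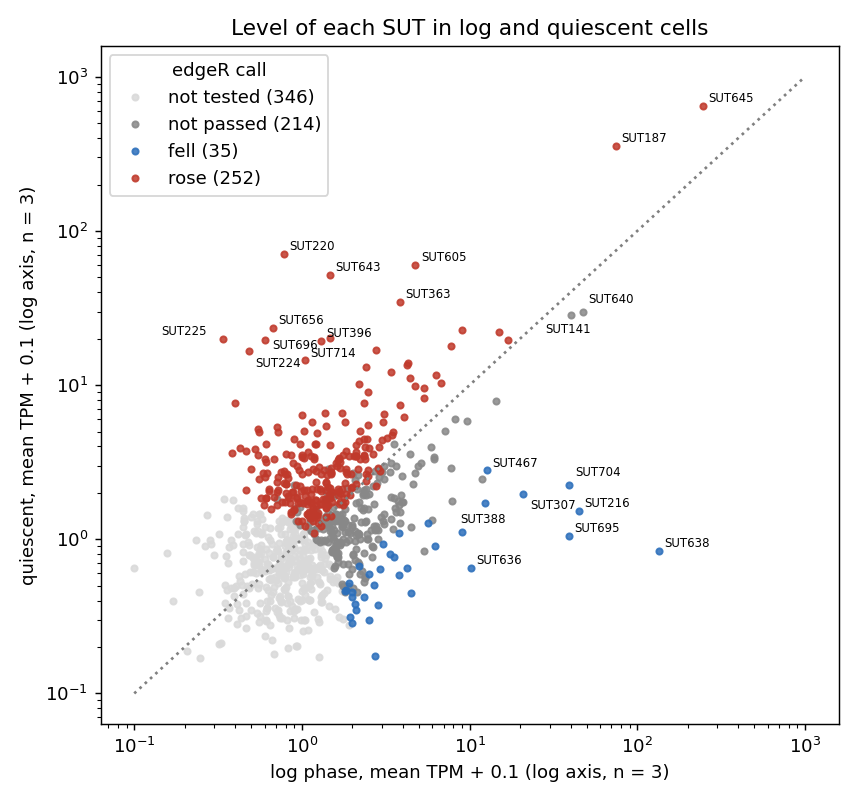
Mean TPM + 0.1 of each of the 847 SUTs in log cells and in quiescent cells (both axes log, n = 3 each), coloured by the edgeR call, with the named SUTs labelled. The dotted line marks equal TPM, which is not the zero of the TMM-scaled fold change. SUT645 and SUT187 stand at the top right, the strongest risers at the upper left and SUT638 at the lower right.

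SUT187 and SUT645 were the most abundant SUTs in quiescent cells. SUT187, of 1128 bases, had 179, 154 and 214 normalized CPM in the log libraries and 1504, 1082 and 2999 in the quiescent libraries. It rose by 3.35 on the log2 scale (SE 0.39, adjusted p = 3.08e-05), with quiescent replicate 3 far above the other two. SUT645, of 272 bases, had 111, 168 and 155 CPM in log cells and 744, 481 and 1173 in quiescent cells (log2 fold change 2.46, SE 0.34, adjusted p = 9.92e-05). The groups did not overlap for either SUT. Per length, SUT645 was the highest SUT in both states, at 246 ± 54.6 TPM in log libraries and 650 ± 195 TPM in quiescent ones (SD, n = 3 each). SUT187 alone held 4.55% to 6.80% of SUT reads in log libraries and 13.4% to 26.6% in quiescent libraries. With both left out, SUT reads per 100 protein-coding reads were 0.452 ± 0.0701 in log libraries and 1.86 ± 0.0573 in quiescent ones, a ratio of the means of 4.11 (SD, n = 3 each, exact permutation p = 0.1). These 2 SUTs were chosen for this after the data were seen.

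Several SUTs that were nearly silent in growing cells were abundant in quiescent cells. Of the 25 that rose with at least 10 TPM in quiescent cells and no overlap between the groups, the 8 with the largest changes were SUT220, SUT225, SUT224, SUT656, SUT643, SUT696, SUT396 and SUT714. SUT220, of 840 bases, had 11, 25 and 12 reads in the log libraries and 3185, 1909 and 2591 in the quiescent libraries. This is 1.24 ± 0.729 and 254 ± 78.3 normalized CPM, a log2 fold change of 7.69 (SE 0.44, adjusted p = 2.54e-07). SUT225 followed, with 9, 4 and 2 reads in log cells and 588, 781 and 510 in quiescent cells (7.30, SE 0.36, adjusted p = 1.41e-07). SUT224 had 4, 6 and 2 reads against 191, 398 and 244 (6.42, SE 0.43). In these 3 the log libraries all lay near the limit of counting, so the size of the fold is imprecise, while the quiescent levels are well counted.

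SUT656 and SUT643, the longest of the 8, had more reads in log cells, 18 to 69 per library. SUT656, of 1456 bases, had 2.10, 2.00 and 1.31 CPM in log cells and 142, 148 and 153 CPM in quiescent cells (6.35, SE 0.24, adjusted p = 8.11e-08). The SD of the quiescent libraries was 5.13 CPM. SUT643, of 1488 bases, had 4.83, 3.41 and 5.03 CPM against 303, 321 and 398 CPM (6.26, SE 0.26, adjusted p = 1.22e-07). It was the fifth SUT by quiescent level, at 52.0 ± 5.48 TPM. SUT696 (6.25, SE 0.41), SUT396 (4.97, SE 0.41) and SUT714 (4.90, SE 0.51) completed the 8, each with 4 to 27 reads in a log library and 182 to 622 in a quiescent one. The short SUT605 (184 bases) and SUT363 (80 bases) were also among the 6 highest SUTs of quiescent cells. SUT605 went from 4.66 ± 1.31 to 60.1 ± 40.3 TPM (4.62, SE 0.41), and its quiescent libraries ranged from 25.8 to 69.3 CPM. SUT363 had 0.630, 0.500 and 0.801 CPM in log cells and 13.4, 8.82 and 14.0 CPM in quiescent cells (4.19, SE 0.38). Its reads were few, 6 to 11 per log library.

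**Figure D4:**
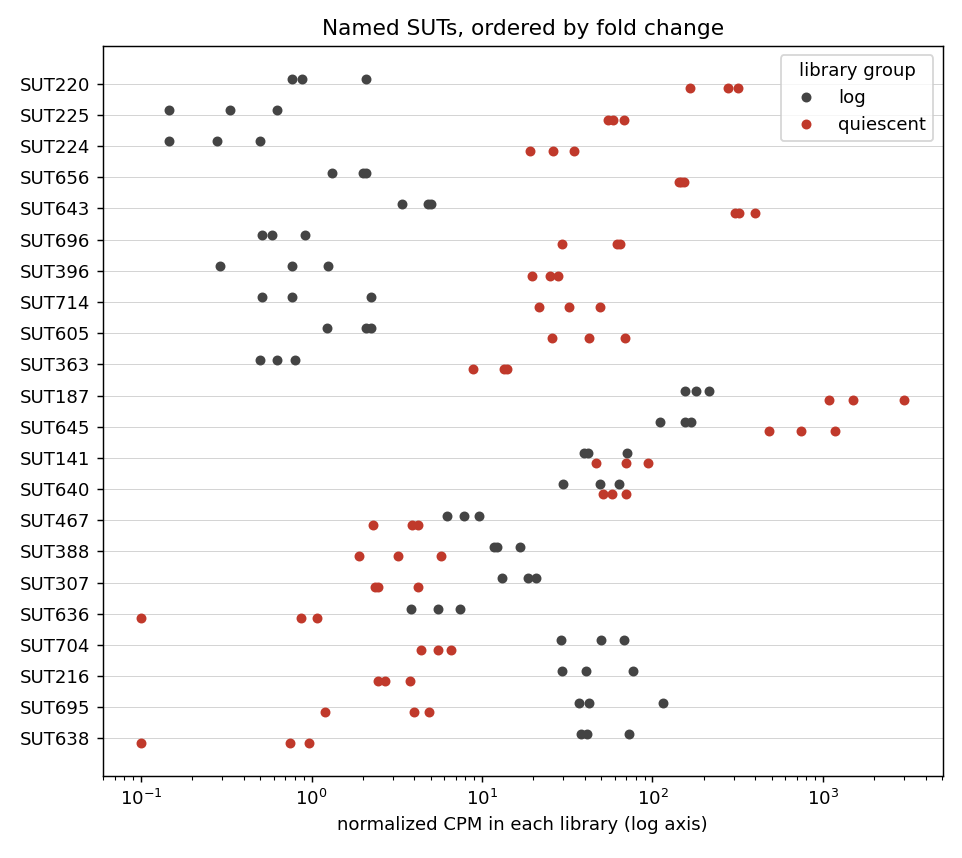
Normalized CPM (log axis) of the named SUTs in each library, log in grey and quiescent in red, ordered by fold change from SUT220 (7.69) at the top to SUT638 (-6.35) at the bottom. The groups are apart for all except SUT141 and SUT640.

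A small set went the other way and was abundant in growing cells. The 8 SUTs that fell with at least 10 TPM in log cells and no overlap were SUT638, SUT695, SUT216, SUT704, SUT636, SUT307, SUT388 and SUT467, and no other SUT met these conditions. SUT638, of 176 bases, had 592, 456 and 1001 reads in the log libraries and 1, 11 and 7 in the quiescent libraries. It was second by level in log cells, at 134 ± 53.6 TPM, and stood at 0.739 ± 0.577 TPM in quiescent cells (SD, n = 3 each), a log2 fold change of -6.35 (SE 0.49, adjusted p = 1.55e-06). Its quiescent reads are too few for a precise fold. SUT695 had 609, 448 and 1572 reads in log cells and 12, 56 and 37 in quiescent cells (-4.26, SE 0.56, adjusted p = 7.18e-05). Log replicate 3 was the highest library for SUT638, SUT695 and SUT704.

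SUT216 went from 29.5, 76.4 and 40.9 CPM in log cells to 3.79, 2.71 and 2.47 CPM in quiescent cells (-4.03, SE 0.38, adjusted p = 7.24e-06). Here log replicate 2 was the highest library. SUT704 had 49.9, 29.1 and 67.8 CPM against 4.39, 5.50 and 6.55 CPM (-3.16, SE 0.33, adjusted p = 1.27e-05). SUT636 (-3.02, SE 0.62), SUT307 (-2.54, SE 0.32), SUT388 (-1.89, SE 0.39) and SUT467 (-1.19, SE 0.34, adjusted p = 0.0110) fell less. The call of SUT467 was lost without log replicate 3 (-0.97, adjusted p = 0.0583) and against a minimum log2 fold change of 1 (adjusted p = 0.239). On both sides some SUTs came close to a switch: 6 were under 1 TPM in log cells and at 10 TPM or more in quiescent cells, and 3 were the reverse.

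SUT640 and SUT141 were the only SUTs with at least 10 TPM in both states that did not pass, and both had been in the top 6 of log cells. SUT640 had 63.5, 30.0 and 49.3 CPM in log cells and 51.6, 69.7 and 57.8 CPM in quiescent cells (0.33, SE 0.27, adjusted p = 0.295). SUT141 had 42.1, 70.6 and 39.5 CPM against 94.7, 46.4 and 69.7 CPM (0.47, SE 0.30, adjusted p = 0.187). The groups overlapped for both, and on log2(TPM + 1) both lay below 0 (-0.62 and -0.54). SUT141 passed upward without log replicate 2 (0.78, adjusted p = 0.0464), without quiescent replicate 2 (0.70, adjusted p = 0.0447) and with a filter of 10 TPM (0.94, adjusted p = 0.0333), and SUT640 with that filter (0.82, adjusted p = 0.0233).

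Length, given for every SUT, went with the number of SUTs that rose and not with the median change. When SUTs were ranked by length into 4 classes of 211 or 212, in the shortest class (32 to 393 bases) 43 of 126 tested SUTs rose (34.1%), and in the longest (1288 to 4912 bases) 81 of 130 did (62.3%). The classes between gave 49.6% and 54.8%, and of all tested rows 32.8% rose. From the shortest to the longest class 10, 8, 6 and 11 SUTs fell, without a trend, beside 35.2% of all tested rows. The median log2 fold change was 1.09, 1.21, 1.17 and 1.24 from the shortest to the longest class, and with no filter 0.86, 0.71, 0.85 and 0.87. Reads per SUT rose with length, from a median of 67.5 reads over the 6 libraries in the shortest class to 476 in the longest. The part of read number in the difference in calls was not tested.

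**Figure D5:**
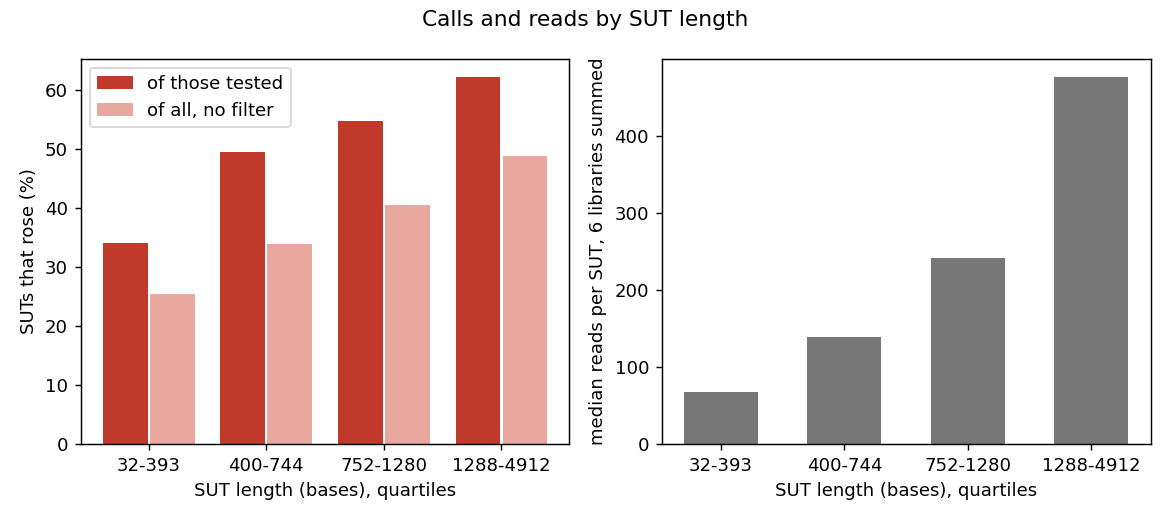
Left, percentage of SUTs that rose in each of 4 classes of SUT length (bases), of those tested and of all SUTs in the fit with no filter. Right, median reads per SUT summed over the 6 libraries. Both climb from the shortest to the longest class (34.1% to 62.3% of those tested, 67.5 to 476 reads).

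The placed SUTs were scarce, and only SUT053 passed the filter. RefSeq describes these 8 as functional noncoding RNAs: SUT035, SUT126, SUT125 and SUT532 as acting in trans on transcription factors, SUT125, SUT390 and SUT418 as raising invertase secretion when deleted, and SUT053 and SUT468 as modulators in the response to steroid biosynthesis. SUT418 (chromosome XVI, 588998 to 589830, plus strand) had 11, 6 and 4 reads in the log libraries and 76, 65 and 38 in the quiescent libraries. In the fit with no filter it rose by 3.30 on the log2 scale (adjusted p = 0.000115), with every quiescent library above every log library. It lies between genes and runs opposite to both neighbours. YPR015C, whose 3′ end lies 452 bases beyond the right end of SUT418, rose as well, from 1.47 ± 0.370 to 4.66 ± 0.707 CPM (1.66, SE 0.40, adjusted p = 0.00424).

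SUT125 (chromosome VII, 650855 to 651159, plus strand) lies between PIL1, a gene of the eisosome, a plasma membrane structure, and PDC6, a minor pyruvate decarboxylase gene, both on the other strand. It had 3, 3 and 4 reads in log cells and 16, 7 and 8 in quiescent cells (1.84 with no filter, adjusted p = 0.0366). PIL1 (0.83, SE 0.20, adjusted p = 0.00415) and PDC6 (2.04, SE 0.36, adjusted p = 0.000593) rose too, beside 32.8% of all tested rows. The counts of SUT125 are near the limit of what can be compared.

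SUT053 (chromosome IV, 506334 to 507774, plus strand) holds the whole of SUT468 (506546 to 507450, minus strand), an overlap of 905 bases. SUT053 had 2.52, 5.25 and 1.97 CPM in the log libraries and 4.89, 6.64 and 8.48 CPM in the quiescent libraries. The groups overlapped through log replicate 2, and the test just missed the threshold (1.04, SE 0.43, adjusted p = 0.0522). SUT468 had 13, 22 and 18 reads in log cells and 13, 15 and 17 in quiescent cells (-0.02 with no filter, adjusted p = 0.978). Over the 6 libraries the read density of SUT468 was 0.473 of that of SUT053. MRH1, a plasma membrane protein gene on the plus strand, lies 372 bases downstream of SUT053 and beyond the 5′ end of SUT468. It fell from 463 ± 55.6 to 7.81 ± 4.59 CPM (-5.88, SE 0.41, adjusted p = 7.68e-07).

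The other placed SUTs did not pass with no filter. SUT035 (adjusted p = 0.609), SUT126 (0.116), SUT390 (0.130) and SUT532 (0.937) had log2 fold changes of 0.63, 0.85, 1.08 and 0.08. SUT126 had 1.12 to 1.82 CPM in log cells and 2.97 to 3.11 CPM in quiescent cells, and SUT390 had 0.364 to 0.749 and 1.10 to 1.66 CPM, both without overlap. With a filter of at least 10 reads in 3 libraries they again missed the threshold (adjusted p = 0.0677 and 0.0716). Among the tested neighbours of these other placed SUTs, TAF2 and YCR043C beside SUT035 fell (-1.21 and -3.68). NNF2 beside SUT126 (-1.36) and ADH4 beside SUT532 (-1.50) fell as well. THI21 beside SUT390 rose (1.84), and APM1 and ZRT1 did not pass.

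SUT169 and SUT527 are tied by RefSeq to a partner gene each. SUT169 is annotated as an antisense transcript that raises SPS100, a sporulation gene, on entry into starvation. RefSeq places it on chromosome VIII at 378254 to 379237, over 946 bases of SPS100, but its annotated length of 984 bases differs from the 2096 bases of the table, so the counted span is not known. SPS100 had 17, 5 and 11 reads in the log libraries and 2051, 1245 and 4298 in the quiescent libraries (8.29, SE 0.65, adjusted p = 1.74e-06). SUT169 had 99, 105 and 31 reads in log cells and 29, 34 and 42 in quiescent cells (-0.94 with no filter, adjusted p = 0.105). SPS100 thus rose without overlap between the groups, while the groups overlapped for SUT169.

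SUT527 is described in the RefSeq entry of RUF20 as pairing with the end of the mRNA of SEC4, a GTPase gene of secretion, with effects on where that mRNA is placed. SUT527 had 50, 45 and 18 reads in log cells and 9, 15 and 12 in quiescent cells. By CPM the lowest log library was only just above the highest quiescent one, and the test missed the threshold (-1.28, SE 0.54, adjusted p = 0.0560), though it passed with no filter (-1.43, adjusted p = 0.0348). SEC4 went from 76.2, 69.9 and 76.1 CPM to 54.7, 48.6 and 49.6 CPM (-0.54, SE 0.16, adjusted p = 0.0136). The RUF20 row itself held 2 reads over all libraries.

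Genes of the pathways that limit SUTs and CUTs were mostly lower in quiescent cells. Of 45 such genes 26 fell, 6 rose and 13 did not pass (median -0.75). Of all tested rows 35.2% fell and 32.8% rose, and of the tested protein-coding genes 41.0% fell and 31.8% rose (median -0.21). Of 13 exosome genes 10 fell, among them RRP42, a ring subunit, from 30.1 ± 2.92 to 5.73 ± 1.26 CPM (-2.39, SE 0.24, adjusted p = 9.22e-06). MTR4, the RNA helicase of the TRAMP complex that feeds the exosome, went from 196 ± 36.5 to 33.7 ± 13.0 CPM (-2.54, SE 0.29, adjusted p = 2.39e-05). Of the 5 TRAMP genes 3 fell, 1 did not pass and 1 rose. The riser was PAP2, from 26.8 ± 2.24 to 45.3 ± 6.63 CPM (0.76, SE 0.18, adjusted p = 0.00443). Of 7 genes of cytoplasmic 5′ decay 6 fell, XRN1 by 1.06 (SE 0.20, adjusted p = 0.000995). Of 3 genes of nonsense-mediated decay 1 fell and 2 did not pass.

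Of the 4 genes of the Nrd1 termination pathway 1 rose and 1 fell. NRD1, the RNA-binding subunit that directs early termination, rose from 62.0 ± 12.3 to 176 ± 68.8 CPM (SE of the log2 fold change 0.30, adjusted p = 0.00116), SEN1 fell (-0.44, SE 0.17, adjusted p = 0.0366), and NAB3 (-0.24) and PCF11 (0.12) did not pass. Of 13 genes that limit transcription within and antisense to genes, 4 rose and 5 fell, close to the 32.8% and 35.2% of all tested rows that did. EAF3, a subunit of the Rpd3S deacetylase, rose from 27.0 ± 1.98 to 103 ± 5.54 CPM (1.93, SE 0.17, adjusted p = 3.98e-06). SET3, HST1 and HOS2 were the others that rose, and SPT6, SPT16, ISW1, SIN3 and SET2 were those that fell. Any link between these levels and those of the SUTs was not tested.

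The spread between replicates was wide for single SUTs. In the 23 SUTs with a mean of at least 10 TPM over all libraries, the coefficient of variation of normalized CPM had a median of 34.1% among log libraries and 23.6% among quiescent libraries, with ranges of 12.3% to 89.7% and 0.684% to 90.8%. Over all tested rows the biological coefficient of variation was 0.264 as a fraction. Leaving out each library in turn gave 222 to 250 SUTs that rose and 26 to 33 that fell, beside 29.6% to 32.7% of all tested rows that rose and 32.3% to 35.4% that fell. Against a minimum log2 fold change of 1, 168 SUTs rose and 17 fell, beside 19.6% and 22.1% of all tested rows.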

How the data were processed

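Ribosome-depleted RNA from 3 log and 3 quiescent samples was sequenced on an Ion Proton, per the labels' protocols. The authors deposited raw read counts per row for each library, with row lengths in bases, per the file headers. The submitters' processing notes name the build R64. Aligner, counting tool and strandedness: not given in the sources used here. A further 6 columns of per-sample TPM values were not used, and TPM was computed here from counts and lengths.

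Rows with a mean of at least 1 TPM over the 6 libraries (7305 of 9891) were fitted with the edgeR 4.0.16 quasi-likelihood test (R 4.3.3, TMM scaling over tested rows, no covariate, two-sided), with Benjamini-Hochberg adjustment over all tested rows at 0.05. The standard error (SE) is the log2 fold change divided by the square root of F. CPM values are counts scaled to the TMM-adjusted library size, given as mean ± SD. The fit was tested on simulated data. For library values, exact permutation tests were used, two-sided. The labels' protocols mention no molecular identifiers, so reads are not independent molecules.

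Named SUTs were the 8 largest rises and falls past the threshold whose higher group averaged 10 TPM or more and whose groups did not overlap, the 6 highest of each group, and up to 4 nearest to 0 that did not pass and had at least 10 TPM in both groups, of which 2 existed. The 2 largest changes in each direction were named from the list of decay, termination and chromatin genes. SUTs and partner genes named in RefSeq, neighbours of the placed SUTs, and PAP2, XRN1, SEN1, NAB3, PCF11, SET3, HST1, HOS2, SPT6, SPT16, ISW1, SIN3 and SET2, were described beyond that rule, after their values were seen. The members and lists were chosen with earlier results of these data known. Alternatives were other scalings, filters, pseudocounts and tools (DESeq2 1.42.0, limma 3.58.1), a test against a minimum change, a replicate block, and leaving out libraries one at a time.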

Additional observations from a re-analysis of the deposited data

How the results depend on the processing

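The numbers of SUTs that rose or fell stayed within 1.5 times of 252 and 35 with other scalings of the counts, DESeq2, a filter of at least 10 reads in 3 libraries and the replicate block. Limma on log2(TPM + 1), log2(TPM + 0.1) and log2(TPM + 5) gave 120, 115 and 112 that rose, 103, 102 and 97 that fell, and medians of 0.093, 0.13 and 0.045. With no filter 55 fell (median 0.82), and with a filter of at least 10 reads in 3 libraries the median was 0.93. With a filter of 10 TPM 17 rose and 5 fell among 23 tested (median 2.85, beside 36.6% and 41.9% of all rows in that fit). Against a minimum log2 fold change of 1, 17 fell. Fewer SUTs were tested at 10 TPM, and the test against a minimum change is stricter on the same fit, so both allow fewer calls. The cause of the other shifts was not tested. Leaving out each library gave 222 to 250 that rose, 26 to 33 that fell, and medians of 1.12 to 1.28.

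As log2 ratios of quiescent over log, the SUT share of counts moved from 1.34 to 1.67 with reads outside the ribosomal DNA unit as denominator, and the share of TPM from 0.51 to 1.90 without rRNA, tRNA and snoRNA rows. The ratio to protein-coding reads moved from 2.36 to 2.01 without the 10 highest SUTs and to 2.05 without SUT187 and SUT645 (chosen after seeing the data), the ratio to CUT reads from 1.09 to 0.66 without the 10 highest of both, and the ratio of medians from 0.97 to 1.17 over rows of at least 1 TPM. Detection moved from 0.22 to 0.076 at a minimum of 5 reads, where the groups overlapped, and to 0.41 at 20 reads. Leaving out each library gave 1.23 to 1.46 for the share of counts, 0.37 to 0.60 for the share of TPM, 2.23 to 2.47 against protein-coding reads, 0.86 to 1.36 against CUTs, 0.89 to 1.10 for the medians and 0.13 to 0.28 for detection, all above 0.

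Of 413 values of named SUTs under these alternatives, 401 kept direction and side of the threshold. Of the rest, SUT141 and SUT640 lay below 0 with limma, at -0.54 and -0.62 with a pseudocount of 1, -0.55 and -0.63 with 0.1, and -0.47 and -0.56 with 5, without passing. With the replicate number as a block, 235 SUTs rose and 31 fell (median 1.15), beside 30.6% and 34% of all rows. Deviations of same-numbered libraries from their group means correlated at 0.104, -0.138 and -0.132, and those of differently numbered ones at -0.136 to 0.225. No sign of pairing by number was seen, but 3 libraries per group are too few to exclude it. For the library values the block left the mean differences as they were, at 1.34, 0.51, 2.36, 1.09, 0.97 and 0.22, with a sign-flip p of 0.25, the smallest that 3 pairs allow. Depth limits the scarce SUTs most: 42 of the 847 had fewer than 10 reads in every library.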
